A study of Mus musculus with 57 samples.

Results

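Genes of 8 chromatin regulator families were described in 57 single cells of the mouse renal vesicle, the small epithelial ball from which a nephron forms. The members were the autosomal rows of the deposited table of 12087 genes whose symbols begin with Hdac, Kdm, Smarc, Chd, Cbx, Dnmt or Ezh, together with Eed, Suz12, Uhrf1, Tet1, Tet2 and Tet3. This gave 58 genes of 12087. A further 5 matching rows lie on the X or Y chromosome and were left out. The 58 fall into 4 DNA methylation genes (Dnmt1, Dnmt3a, Dnmt3b and Uhrf1), 3 Tet genes, 4 genes of Polycomb repressive complex 2 (Ezh1, Ezh2, Eed and Suz12), 7 Cbx, 7 Hdac, 12 Kdm, 12 Smarc and 9 Chd genes.

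All cells belong to 1 group. They came from 1 pool of 2 kidneys of Tg(Crym-EGFP)82Gsat mice at postnatal day 4, on a mixed background and of unknown sex. This transgene places EGFP, a green fluorescent protein, under control of the Crym gene. The cells were isolated by fluorescence sorting and captured singly on a Fluidigm C1 chip, and their cDNA was amplified by PCR without molecular identifiers. There is no untreated or second group and no replicate pool, so the cells are not replicates, SDs are over cells, and no test was made. The unit is RPKM, which scales reads by gene length and library size. Levels of different genes are set side by side on this scale, and differences in amplification between genes were not tested. Detection means an RPKM of at least 1.

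These families set and read the chemical state of chromatin. Dnmt1 copies DNA methylation to the new strand after replication with the help of Uhrf1, Dnmt3a and Dnmt3b add methylation at new sites, and Tet enzymes oxidise the methyl group. Polycomb repressive complex 2, with Ezh1 or Ezh2 as its catalytic subunit and Eed and Suz12 as its core, methylates histone H3 at silenced developmental genes, and some Cbx proteins read that mark while Cbx1, Cbx3 and Cbx5, the HP1 proteins, bind the mark of heterochromatin. Hdac enzymes remove histone acetyl groups, Kdm enzymes remove histone methyl groups, and Smarc and Chd proteins include the motors and subunits that move nucleosomes. In the developing kidney these enzymes act in progenitors and in their epithelial progeny, where histone deacetylases and Polycomb proteins are known to affect nephron formation.

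The median cell held an estimated 1.47 M reads (range 0.475 to 2.29 M) and 4307 detected genes (range 2809 to 6502). In a cell of median depth, RPKM 1 corresponded to 2.44 to 21.1 reads over the members, with a median of 7.88, so values near 1 rest on few reads. The Pax8 gene, a marker of the early nephron, was at RPKM 5 or more in 50 cells, which are called nephron cells here. In the 50, 12 of 12 renal vesicle markers were detected in at least 1 cell, and their summed level was 183 to 2492 RPKM per cell with a median of 1350. Pax8 is itself 1 of the 12, so part of this sum follows from the rule that picked the cells. Another 5 cells had C1qb, a complement gene of macrophages, at RPKM 1000 or more and are called macrophage-like. In these, 12 of 12 immune markers were detected, with a summed level of 9395 to 20075 RPKM, against 0 to 182 in the nephron cells. C1qb, at 1589 to 2362 RPKM in the 5, is itself 1 of the 12. Part of the sum and of the contrast therefore follows from the rule. The other 2 cells met neither rule. The sorted cells therefore did not all carry the labelled identity, and results are given for the nephron cells where the cell cycle or nephron state is described.

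The members were detected in more cells than most rows of the table. Of the 58 members, 32 were detected in 29 or more of the 57 cells, against 28.0% of all rows. In 5 cells or fewer 4 of the 58 were detected, against 2245 of all 12087 rows. The median member was detected in 58.8% of cells and the median row in 28.1%. The median of the mean RPKM was 12.0 over members and 8.86 over all rows. A cell held 18 to 45 members, with a median of 31, and this number ran with the number of all genes detected in the cell (Spearman rho 0.82 over 57 cells, which share chemistry and differ in depth). The part of depth and RNA quality in members missing from a cell was not tested.

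**Figure D1:**
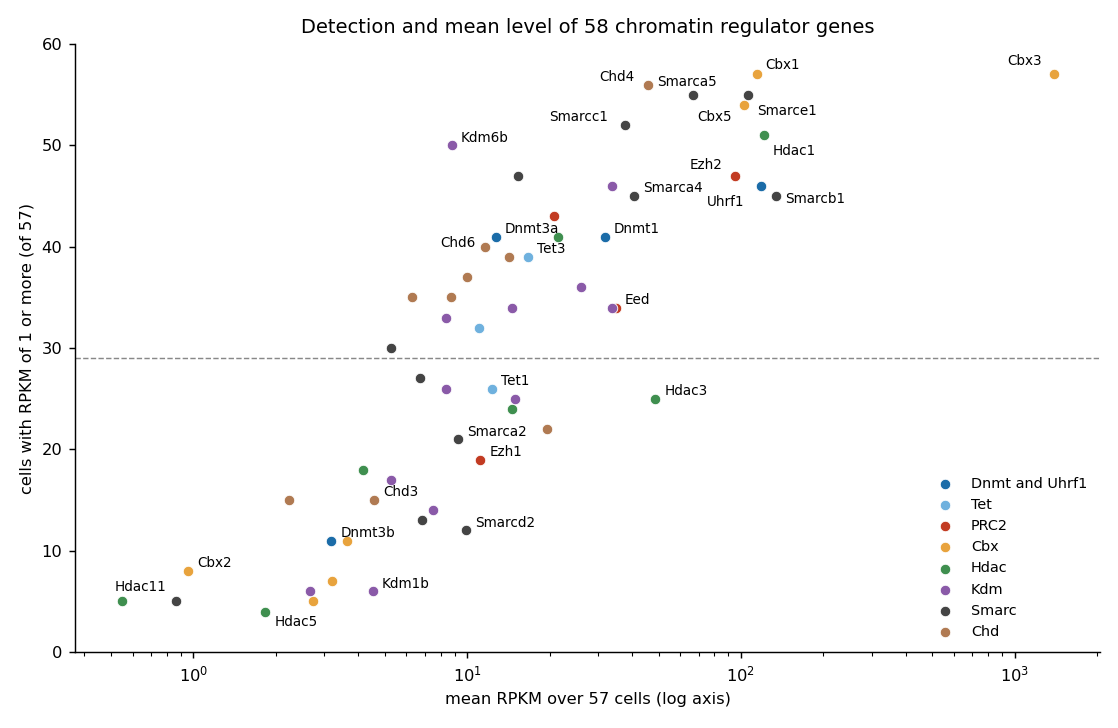
Each point is 1 of 58 members: mean RPKM over 57 cells (x, log axis) against the number of cells with RPKM of 1 or more (y), coloured by family. The dashed line marks 29 cells. Cbx3 stands alone at the right with a mean of 1390, and Hdac3 has a high mean (48.6) for a gene detected in 25 cells.

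The Cbx family carried 55.2% of the summed mean RPKM of all members, almost all of it from the HP1 genes. Cbx3, an HP1 protein found in both open and closed chromatin, lies on chromosome 6 (51420615 to 51433703, build mm9) and reached RPKM 1 in 57 of 57 cells (exact 95% interval 93.7 to 100%) at 343 to 2702 RPKM, with a median of 1376. Cbx1 was detected in all 57 cells at 6.73 to 273 RPKM (median 116), and Cbx5 in 54 cells at 0.20 to 272 RPKM (median 92.7). Cbx3 was the highest of the HP1 genes in every cell, and its mean was 12.2 times that of Cbx1 and 13.6 times that of Cbx5. Sequences almost identical to Cbx3 lie in 11 other annotated genes, 9 of them pseudogenes, and reads from such copies could not be separated, so its level is uncertain. The Polycomb readers named next were sparse. Cbx2 was detected in 8 cells (14.0%, interval 6.26 to 25.8%), Cbx6 in 11 and Cbx8 in 7, and the highest value of Cbx2 in any cell was 11.4 RPKM.

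Among the DNA methylation genes, Uhrf1 was highest. Uhrf1 (chromosome 17, 56442760 to 56462909, build mm9) was detected in 46 cells (80.7%) at up to 730 RPKM, with a mean of 118 ± 134 (SD) and a median of 77.6. A pseudogene holds a near-identical stretch of Uhrf1, and its reads may be counted with the gene. Dnmt1 (chromosome 9, 20711650 to 20764332) was detected in 41 cells at up to 177 RPKM, with a mean of 31.8 ± 40.4 and a median of 13.1. Dnmt3a was detected in 41 cells as well, at a mean of 12.7 ± 17.6, and Dnmt3b in 11 cells at 3.19 ± 9.02. Of the 57 cells, 37 had both Dnmt1 and Uhrf1, 9 had Uhrf1 alone, 4 had Dnmt1 alone and 7 had neither, where independence of the pair would give 33.1 cells with both. For Dnmt3a and Dnmt3b, 8 cells had both and independence gives 7.91.

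The Tet genes had means close to each other. Tet3 was detected in 39 cells at 16.6 ± 22.6 RPKM, Tet2 in 32 cells at 11.1 ± 30.7 and Tet1 in 26 cells at 12.3 ± 26.3. All 3 genes were detected in 10 cells, 2 of them in 25 cells, 1 in 17 cells and none in 5 cells. A single cell held 35.5% of the summed Tet2 signal, a cell at 224 RPKM, and the next cell was at 42.9.

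Within Polycomb repressive complex 2, Ezh2 was well above its paralog. Ezh2 (chromosome 6, 47480273 to 47545337, build mm9) was detected in 47 cells (82.5%, interval 70.1 to 91.3%) at up to 390 RPKM, with a mean of 95.2 ± 102 and a median of 62.4. Ezh1 was detected in 19 cells at a mean of 11.2 ± 34.7, and 36.6% of its summed signal came from 1 cell at 234 RPKM. Ezh2 was the higher of the pair in 49 of 57 cells and Ezh1 in 4. Eed was detected in 34 cells at 34.8 ± 57.8 RPKM and Suz12 in 43 cells at 20.7 ± 31.8. A catalytic subunit together with Eed and Suz12 was detected in 23 of 57 cells, and in each of those cells Ezh2 was among the detected genes. Both Eed and Suz12 were present in 27 cells, beside 25.6 under independence.

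The Hdac family was led by the class I genes. Hdac1 was detected in 51 cells at a mean of 121 ± 152 RPKM and a median of 85.6, Hdac2 in 41 cells at 21.4 ± 33.2 and Hdac3 in 25 cells at 48.6 ± 83.0. At least 1 of Hdac1 and Hdac2 was detected in 55 cells, 37 had both, and Hdac1 was the higher in 43 cells. Hdac1 has 2 near-identical pseudogenes, so its level may include their reads. Hdac4, a class II enzyme, was detected in 24 cells and Hdac7 in 18, while Hdac11 was detected in 5 cells and Hdac5 in 4.

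The Smarc genes ran from core subunits found in 45 to 55 cells to alternative subunits found in 5 to 30 cells. Smarce1 was detected in 55 cells at 106 ± 69.7 RPKM, Smarca5, the motor of the ISWI remodelers, in 55 cells at 66.8 ± 58.1, and Smarcc1, a scaffold subunit of the SWI/SNF complex, in 52 cells at 37.7 ± 30.9. Smarcb1, another core subunit, had the highest mean of the family (135 ± 148) and was detected in 45 cells. The SWI/SNF motor Smarca4 (chromosome 9, 21420613 to 21508674, build mm9) was detected in 45 cells at 40.8 ± 44.0 and its alternative Smarca2 in 21 cells at 9.29 ± 18.7. Smarca4 was higher in 44 cells and Smarca2 in 11, and 15 cells had both where independence gives 16.6. Smarcc1 exceeded its paralog Smarcc2 in 49 cells. Either motor with Smarcb1, Smarcc1 and Smarce1 was detected in 38 cells. Of the alternative subunits of the Smarcd set, Smarcd1 was detected in 30 cells (5.26 ± 8.52 RPKM), Smarcd2 in 12 (9.93 ± 38.4) and Smarcd3 in 5 (0.86 ± 3.69). No Smarcd gene was detected in 22 cells, 1 in 25, 2 in 8 and all 3 in 2. Near-identical pseudogenes exist for Smarca5 (6), Smarce1 (3) and Smarcc1 (1), and their reads may be counted with these genes.

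By the median of the mean RPKM of their genes, the Chd (10.0) and Kdm (8.59) families were below all others except Cbx (3.65). Chd4, the motor of the NuRD complex, was detected in 56 cells (98.2%) at 45.8 ± 46.9 RPKM, and its paralog Chd3 in 15 cells at 4.58 ± 13.6. All 15 cells with Chd3 also had Chd4. Chd4 with Hdac1 or Hdac2, its deacetylase partners in NuRD, was detected in 54 cells. Chd6 was detected in 40 cells, Chd2 in 39 and Chd7 in 15 (2.23 ± 5.02 RPKM). Kdm6b, which removes the Polycomb mark, was the Kdm gene found in most cells, 50 of 57 (87.7%, interval 76.3 to 94.9%), yet at a mean of 8.79 ± 11.3 RPKM, lower than Ezh2 in 41 cells. Kdm5a was detected in 46 cells at 33.7 ± 43.6 and Kdm5b in 34 cells at 14.6 ± 25.2. Kdm2b was detected in 36 cells at 26.1 ± 38.6 and Kdm1a, also called Lsd1, in 34 cells at 33.7 ± 67.3. Kdm1b and Kdm4b were each detected in 6 cells. An exon of Kdm1b overlaps the gene Dek, and an exon of Kdm2b overlaps Rnf34, and without strand their reads cannot be told apart. Kdm2b also has a near-identical pseudogene, and Cbx6, Chd2 and Hdac11 each overlap 1 gene that is no row of the table.

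**Figure D2:**
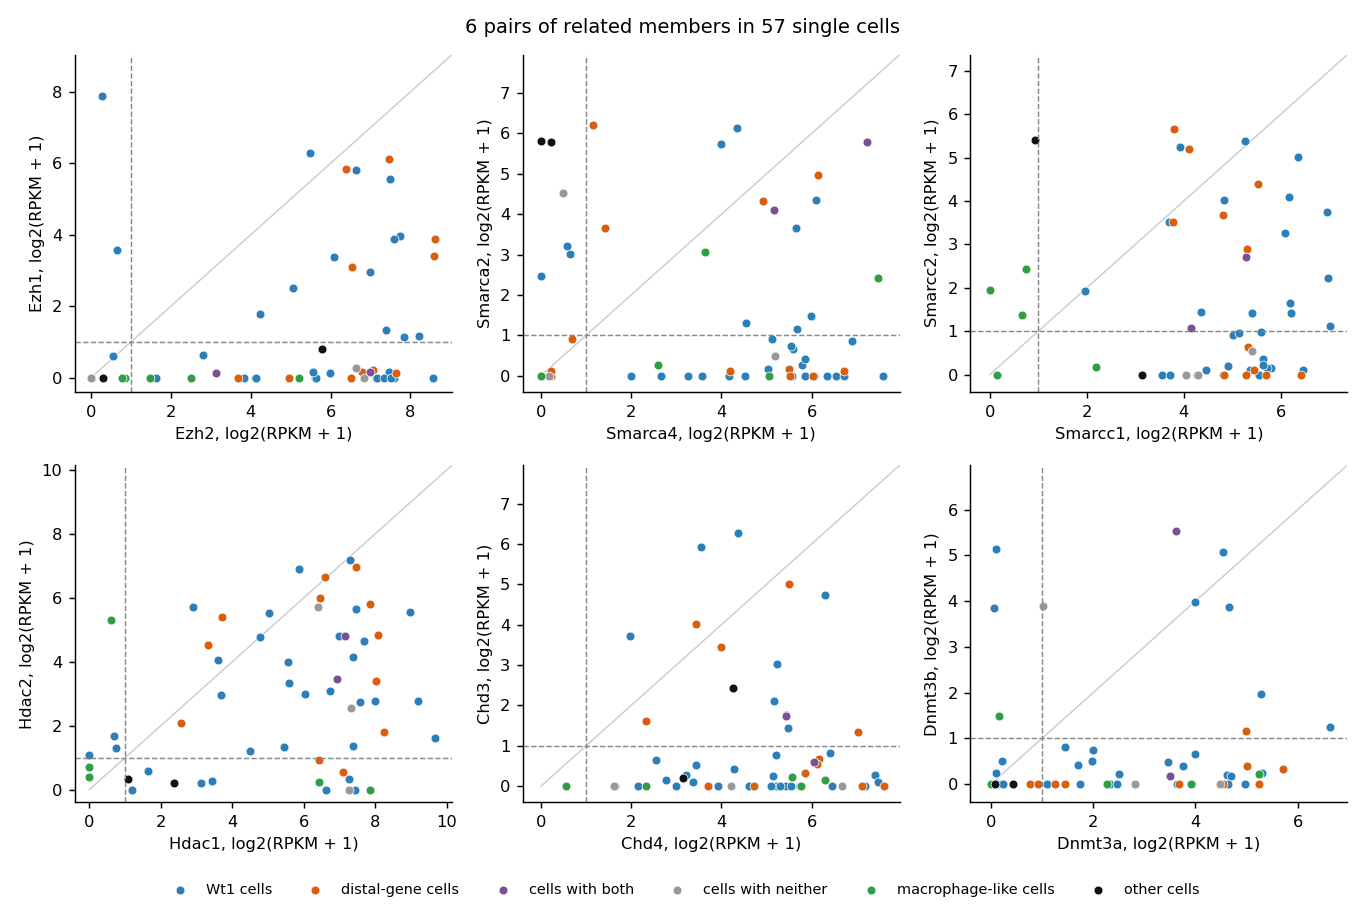
Each panel plots 57 cells for 1 pair of related members, log2(RPKM + 1) on both axes, coloured by class. Dashed lines mark RPKM 1 and the grey line marks equal levels. Most cells lie under the grey line in all 6 panels, with 49 of 57 cells higher for Ezh2 than Ezh1 and 53 of 57 higher for Chd4 than Chd3.

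Members varied less from cell to cell than most genes of like level. Variation was the log10 of the squared coefficient of variation above a trend on mean RPKM, taken over genes with a mean of at least 1 and detection in 5 cells or more. The trend takes no account of gene length, and at a like RPKM a longer gene rests on more reads. The part of length in these values was not tested. Of the 54 members measured, 16 (29.6%) lay above the trend, against 50.9% of 10083 rows, and the median was -0.26 for members and 0.01 for the rows. The Chd genes had the lowest family median (-0.46), with 1 of 9 above the trend, and the Smarc genes followed (-0.39), with 2 of 11. The Cbx genes had the highest (0.18), with 4 of 6 above. Among the members furthest above the trend were Cbx8, Cbx6, Smarcd2 and Kdm1b, which were detected in 6 to 12 cells each. In Cbx8, 63.7% of the summed signal came from 1 cell at 117 RPKM. Over all 58 members, 11 had at least 33.3% of the summed RPKM in a single cell, against 37.6% of rows.

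Cell cycle state was described with 2 scores in the 50 nephron cells, the mean log2(RPKM + 1) of 28 genes of the G2 and M phases and of 26 genes of S phase. No member is in either list. The G2/M score ran from 0.25 to 6.55 and had a wide gap between 1.89 and 3.02, with 21 cells below it and 29 above. The S score ran from 0.71 to 6.93. A score is a range and not a cell type, and 22 cells lay within 0.5 of an edge of the 16 highest or 16 lowest by G2/M score. Both scores ran with the number of genes detected (rho 0.65 for G2/M and 0.46 for S) and less with each other (rho 0.19), so a partial rho given the genes detected is printed beside the rho of the leading members. All are rank correlations over 50 cells of 1 pool, which share chemistry and differ in depth, given as descriptions.

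The maintenance methylation pair followed the S score. Dnmt1 had the highest rho with it of all members, 0.59 (partial 0.54), and Uhrf1 followed with 0.47 (partial 0.44). In the 16 cells with the lowest S score Dnmt1 was between 0 and 177 RPKM with a median of 1.08 and was detected in 8 cells, and in the 16 cells with the highest S score it was between 0.12 and 132 with a median of 52.1 and was detected in 15. These groups overlap, because 1 low-scoring cell held the highest Dnmt1 value of all. Uhrf1 was detected in 10 of the 16 lowest-scoring cells, at 0 to 360 RPKM and a median of 19.8, and in all 34 other nephron cells. Among the 16 highest-scoring cells its median was 168. Its 6 nephron cells below RPKM 1 all had an S score of 2.45 or less. Of 12087 rows, 4 had such a pattern of presence in those 34 cells and in no more than 10 of the 16, namely Uhrf1, the replication genes Mcm7 and Lig1, and Ptn. They were picked out after their values were seen, and Mcm7 is part of the S score. Over all rows, the genes with the highest rho to Dnmt1 were Mcm7 (0.57), Chaf1b (0.55), which like Mcm7 is in the S list, and Tril (0.54).

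**Figure D3:**
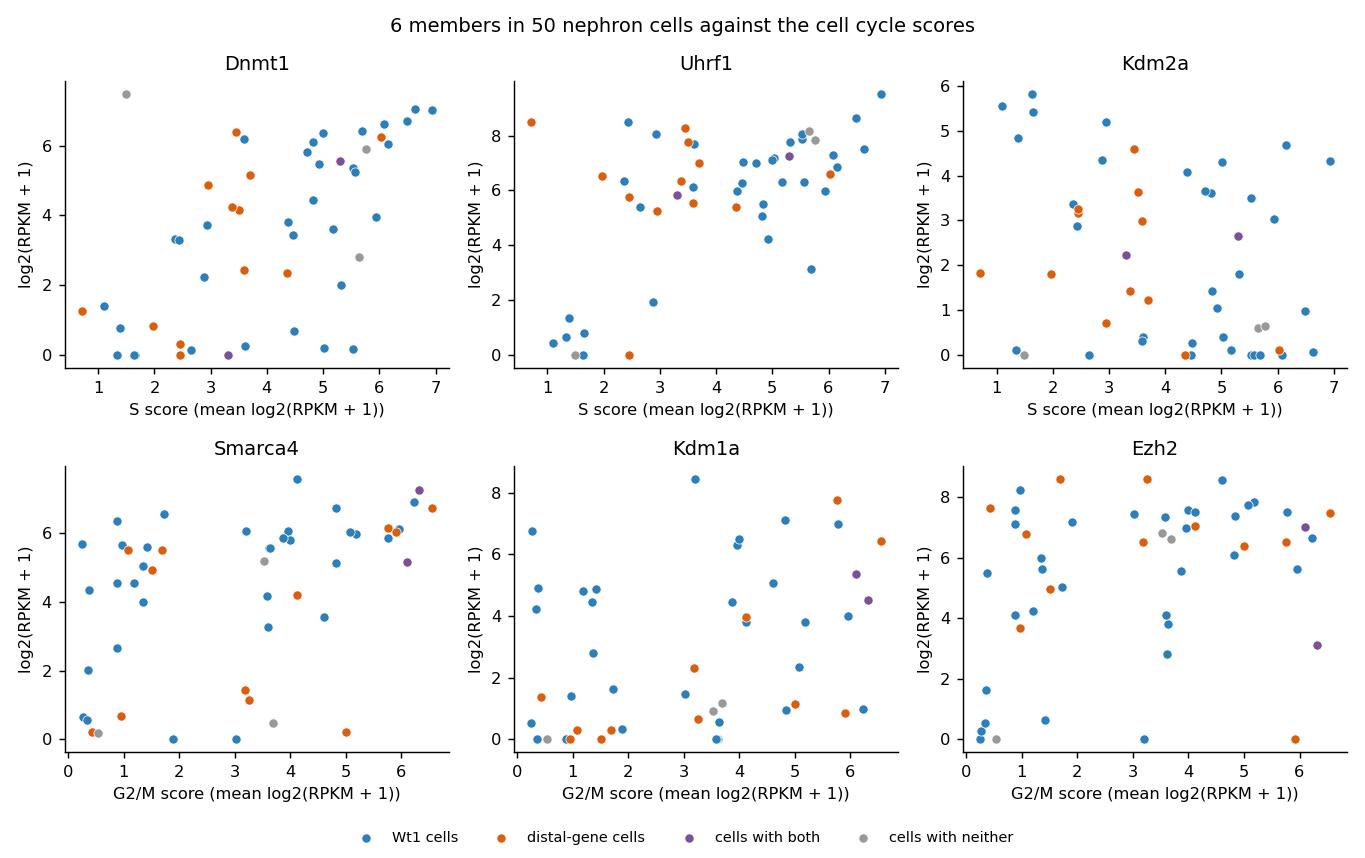
Each panel plots 1 member in 50 nephron cells, log2(RPKM + 1), against the S score (top row) or the G2/M score (bottom row), coloured by class. The 6 cells with Uhrf1 below RPKM 1 lie at S scores of 2.45 or less, and Kdm2a runs the other way.

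In all, 7 of 56 members (12.5%) reached a rho of 0.3 or more with the S score, against 9.02% of 9956 rows tested, and 1 reached -0.3 or less, against 1.22%. The share of members was thus close to the background. The median rho was 0.12 for members and 0.07 for rows. After Dnmt1 and Uhrf1 came Chd1l, a remodeler of DNA repair (0.44, partial 0.39), Kdm1b (0.41, detected in 5 nephron cells, with the overlap named above), Smarcad1, a remodeler known to act at replicated chromatin (0.37, partial 0.27), Hdac4 (0.36, partial 0.25) and Hdac2 (0.34, partial 0.22). Chd1l was detected in 3 of the 16 lowest-scoring cells and 10 of the 16 highest. Of the new-site methyltransferases, Dnmt3a was at -0.19 and Dnmt3b at 0.15. Kdm2a, a demethylase that binds unmethylated CpG islands, had the one negative value past the mark, -0.31 (partial -0.40), with a median of 8.24 RPKM in the 16 lowest-scoring cells and 0.54 in the 16 highest. With the number of detected genes held, 6 members were at 0.3 or more with the S score (rows 4.33%) and 3 were at -0.3 or less (rows 2.92%).

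Smarca4 stood highest for the G2/M score. Its rho was 0.52 (partial 0.39). In the 16 cells with the lowest G2/M score Smarca4 was between 0.13 and 80.3 RPKM with a median of 17.2, and in the 16 with the highest it was between 0.16 and 190 with a median of 63.8, so the ranges overlap. The mean was 3.22 times as high on the scale with a pseudocount of 1 (log2 ratio 1.69, and 1.52 without the highest cell). Its paralog Smarca2 had a rho of -0.02. The histone demethylase Kdm1a followed with 0.38 (partial 0.16), at a median of 1.02 RPKM in the lowest-scoring cells and 14.7 in the highest. Next came Smarcad1 (0.33), Smarcd2 (0.32, partial 0.28), Kdm2b (0.32), Cbx5 (0.31), Ezh2 (0.30), Tet1 (0.30, just under the mark), Hdac2 (0.29) and Cbx1 (0.27, partial 0.29). The partial values of Smarcad1, Kdm2b, Cbx5, Ezh2, Tet1 and Hdac2 were between 0.09 and 0.18. The 5 lowest were Tet2 (-0.19), Kdm4c (-0.14), Chd9 (-0.13), Kdm6b (-0.12, partial -0.28) and Kdm5a (-0.09). For the same score Uhrf1 was at 0.00 and Dnmt1 at 0.23.

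**Figure D4:**
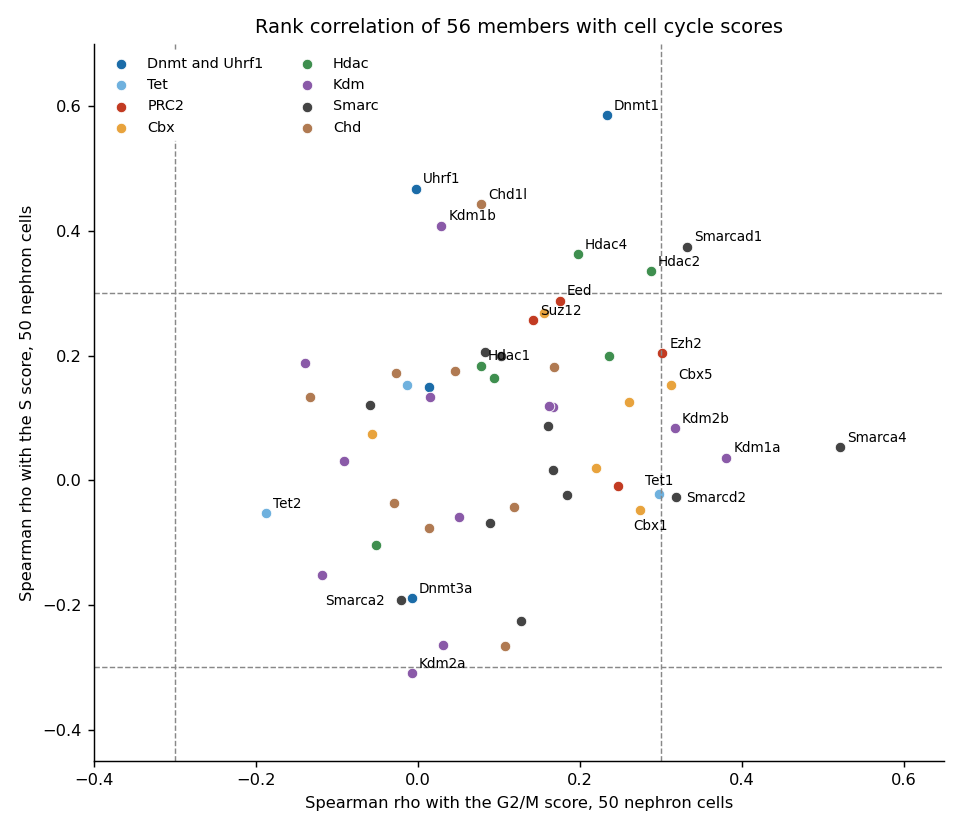
Each point is 1 of 56 members: Spearman rho with the G2/M score (x) against rho with the S score (y) over 50 nephron cells, coloured by family. Dashed lines mark 0.3 and -0.3. Smarcad1 is past 0.3 on both axes, Smarca4 (0.52) on the x axis and Dnmt1 (0.59) on the y axis.

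For the G2/M score 7 of 56 members (12.5%) were at 0.3 or more, against 10.1% of rows, and none was at -0.3 or less, against 0.934% of rows. With the number of detected genes held, 2 members were at 0.3 or more, against 3.42% of rows. Of the 7, only Smarca4 stayed, and Cbx6 rose past the mark (rho 0.22, partial 0.34). By mean RPKM, 8 of 58 members were 2-fold or more higher in the 16 highest-scoring cells (rows 21.8%) and 4 were lower (rows 19.8%). Of these, 5 higher members (rows 11.3%) and no lower member (rows 6.54%) kept that size without their single highest cell. They were Smarcd2, Smarcal1, Kdm1a, Smarca4 and Hdac3. Hdac3 was detected in 10 of the 16 highest-scoring cells and 4 of the 16 lowest, with a median of 50.6 RPKM against 0.16. Tet2, Kdm1b, Cbx6 and Kdm5a were the 4 lower members. These shares lie below those of all rows. By the difference of mean log2(RPKM + 1), where single high cells weigh less, the order was the other way for higher members, with 15 of 58 (25.9%) against 18.5% of rows, and none was lower, against 3.52% of rows.

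A group of 10 nephron cells was among the lowest 16 in both scores, 6 of them with Wt1, 3 with distal genes and 1 with neither. Uhrf1 was detected in 5 of the 10 and 39 of the other 40, Smarcad1 in 5 and 38, Smarca4 in 5 and 36, Dnmt1 in 4 and 33, and Ezh2 in 6 and 37. Kdm6b, Chd4, Smarca5, Smarcc1, Smarce1, Cbx1 and Cbx3 were detected in all 10, and the share of all rows that were is not given here. Kdm2a had a median of 17.7 RPKM in the 10 and 1.52 in the others, Kdm5b 22.4 and 3.35, Dnmt3a 12.9 and 3.51, and Smarca2 4.18 and 0.08. These members were picked after their values were seen. The 10 cells had a median of 3759 genes detected against 4397, and its part in these values was not tested.

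Promoter sequence is shown for 4 members whose values ran with a score. In a RefSeq table of build GRCm38.p6, 44 of the 58 members were matched, with 63 windows of 250 bases before a transcript start, and none of the bases printed here is annotated as exon. The letters TTTGGCGC, TTTCCCGC, TTTGCCGC and TTTCGCGC, the form of E2F sites, the letters TTTGAA and TTCGAA, the form of the cell cycle homology region, and CCAAT were searched on both strands, and matches are in capitals, where a match on the other strand reads as its reverse complement. Windows are at chr17:56304063-56304312 (+) for Uhrf1, chr9:20952980-20953229 (-) for Dnmt1, chr9:21615919-21616168 (+) for Smarca4 and chr6:47595031-47595280 (-) for Ezh2, each read 5′ to 3′ toward the start.
Uhrf1: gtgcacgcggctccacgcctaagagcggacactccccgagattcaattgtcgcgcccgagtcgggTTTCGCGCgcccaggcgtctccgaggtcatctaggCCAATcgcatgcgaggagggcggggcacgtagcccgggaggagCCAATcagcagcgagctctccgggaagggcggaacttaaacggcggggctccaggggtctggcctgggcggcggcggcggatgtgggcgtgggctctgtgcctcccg
Dnmt1: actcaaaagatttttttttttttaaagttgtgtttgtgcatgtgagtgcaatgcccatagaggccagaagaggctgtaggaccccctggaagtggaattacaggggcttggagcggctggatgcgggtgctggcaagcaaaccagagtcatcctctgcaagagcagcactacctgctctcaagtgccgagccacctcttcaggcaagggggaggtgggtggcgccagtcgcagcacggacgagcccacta
Smarca4: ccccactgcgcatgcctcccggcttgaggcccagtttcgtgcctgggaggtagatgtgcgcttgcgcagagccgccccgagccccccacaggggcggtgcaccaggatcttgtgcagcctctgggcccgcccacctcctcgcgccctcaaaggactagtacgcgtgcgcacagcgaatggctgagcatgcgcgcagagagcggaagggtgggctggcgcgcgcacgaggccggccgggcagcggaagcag
Ezh2: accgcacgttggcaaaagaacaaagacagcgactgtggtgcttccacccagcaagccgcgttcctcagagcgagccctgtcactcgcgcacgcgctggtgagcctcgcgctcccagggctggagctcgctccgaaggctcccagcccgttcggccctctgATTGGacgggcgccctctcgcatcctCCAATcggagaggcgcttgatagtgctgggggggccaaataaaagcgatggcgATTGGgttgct

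Uhrf1 holds TTTCGCGC and 2 CCAAT, Ezh2 holds CCAAT 3 times over both strands, and the windows of Smarca4 and Dnmt1 shown hold none. Of the other Dnmt1 windows, which were not printed, one holds CCAAT 4 times and TTTGAA, and the other holds CCAAT 3 times and TTTCGCGC, with 166 of its bases annotated as exon. The E2F letters lay in windows of 5 members, Uhrf1, Dnmt1, Suz12, Cbx3 and Smarcd1, which is 7.94% of member windows against 1.86% of 32851 windows in the table. The share rests on 5 windows, and base composition was not compared. In the windows of Cbx3 and Smarcd1, 152 and 158 bases are annotated as exon. CCAAT lay in 33.3% of member windows against 33.8%, and the cell cycle homology letters in 9.52% against 17.1%. In the printed windows no match overlapped another. A match is a description of letters, not of a factor bound there.

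Nephron state was described with genes outside the families. Wt1 cells, 33 in number, had the podocyte and proximal regulator Wt1 at RPKM 20 or more and both Sox9 and Pou3f3 below it. Distal-gene cells, 12 in number, had Sox9 or Pou3f3 at 20 or more and Wt1 below it, while 2 cells had both and 3 neither. Genes detected per cell had medians of 4339 and 4330 and G2/M scores 3.21 and 3.22, while the S score was higher in Wt1 cells (median 4.82 against 3.41). The summed level of 8 proximal markers had a median of 682 RPKM in Wt1 cells and 112 in distal-gene cells, and that of 9 distal markers 74.6 and 813. Both lists hold genes that set the classes.

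Kdm2b had the largest ratio toward distal-gene cells. Kdm2b (chromosome 5, 123320685 to 123439101, build mm9), which recruits a Polycomb complex to CpG islands, was between 0 and 68.6 RPKM in Wt1 cells with a median of 0.77, and between 0.09 and 166 in distal-gene cells with a median of 67.4. It was detected in 16 of 33 Wt1 cells and 11 of 12 distal-gene cells. Its mean was 11.0 ± 18.8 in the first and 72.2 ± 50.4 in the second, a 6.11-fold difference (log2 ratio -2.61, and -2.43 without the highest cell). The classes overlap, since 2 distal-gene cells were low in Kdm2b and 1 Wt1 cell was above the distal median. In the authors' deposited table of a proximal and a distal class, Kdm2b had a signed fold of -15.7, higher in the distal class. The limits from Rnf34 and the pseudogene named above hold for both values. Its paralog Kdm2a had means of 11.1 in Wt1 cells and 5.55 in distal-gene cells.

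Smarcal1, an annealing helicase of stalled replication forks, was also higher in distal-gene cells, detected in 6 of 12 against 5 of 33 Wt1 cells, with means of 19.8 ± 30.9 and 3.96 ± 10.7 RPKM (log2 ratio -2.07). Its medians were 1.56 and 0, so the difference rests on 6 cells against 5. Hdac7 kept a 2-fold difference without its highest cell (log2 ratio -1.38, then -2.03). Kdm4a (-1.42) did not, and Tet2 (-1.36) turned to 1.37 without the cell at 224 RPKM.

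Tet3 and Chd9 were the widely detected members that were higher in Wt1 cells. Tet3, the Tet enzyme of most cells here, was between 0 and 71.4 RPKM in Wt1 cells with a median of 16.3, and between 0 and 47.5 in distal-gene cells with a median of 0.76. It was detected in 26 of 33 and 5 of 12, with means of 19.6 ± 20.3 and 6.74 ± 13.8 (log2 ratio 1.41, and 1.29 without the highest cell). The authors' deposited table holds Tet3 at a signed fold of 6.25, higher in the proximal class. Chd9 was detected in 22 of 33 Wt1 cells at a median of 2.89 RPKM and in 4 of 12 distal-gene cells at a median of 0.11 (log2 ratio 1.46). Smarcd2 (7 of 33 and 2 of 12, log2 ratio 2.45), Cbx8 (5 of 33 and 1 of 12, 2.08) and Dnmt3b (7 of 33 and 1 of 12, 1.99) had larger ratios on few cells. Kdm1b and Hdac5 were detected in 4 and 3 Wt1 cells and are listed at 0 in all distal-gene cells. Chd2 was at a median of 12.4 RPKM in Wt1 cells and 1.16 in distal-gene cells, but its means were 14.7 and 12.9. The authors' deposited table gives Chd2 a fold of 6.03 toward the proximal class and Cbx1 a fold of -1.30.

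In all, 10 of 58 members were 2-fold or more higher in Wt1 cells (rows 25.9%) and 5 in distal-gene cells (rows 15.1%). Without each gene's highest cell 5 of the 10 (rows 14.8%) and 3 of the 5 (rows 5.45%) kept that size. The 3 were Kdm2b, Smarcal1 and Hdac7. The 5 were Tet3, Chd9, Dnmt3b, Smarcd2 and Kdm1b. The authors' deposited table holds 4 members, Kdm2b, Tet3, Chd2 and Cbx1, 6.90% of the members, beside 6.51% of all rows. Its 28 cells are among the 57, so it is not independent of them. Other widely detected members lay nearer or further apart by their medians. Hdac1 was at 57.4 and 117 RPKM, Smarcb1 at 66.8 and 142, Kdm5a at 13.4 and 32.5, Hdac2 at 5.80 and 24.7 and Smarcad1 at 10.4 and 4.65 in Wt1 and distal-gene cells, none of them 2-fold apart by mean. Median Ezh2 was 62.4 and 100 RPKM, Cbx3 1442 and 1474, Cbx1 107 and 127, Cbx5 92.7 and 98.9, and Uhrf1 78.7 and 86.1 in Wt1 and distal-gene cells.

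**Figure D5:**
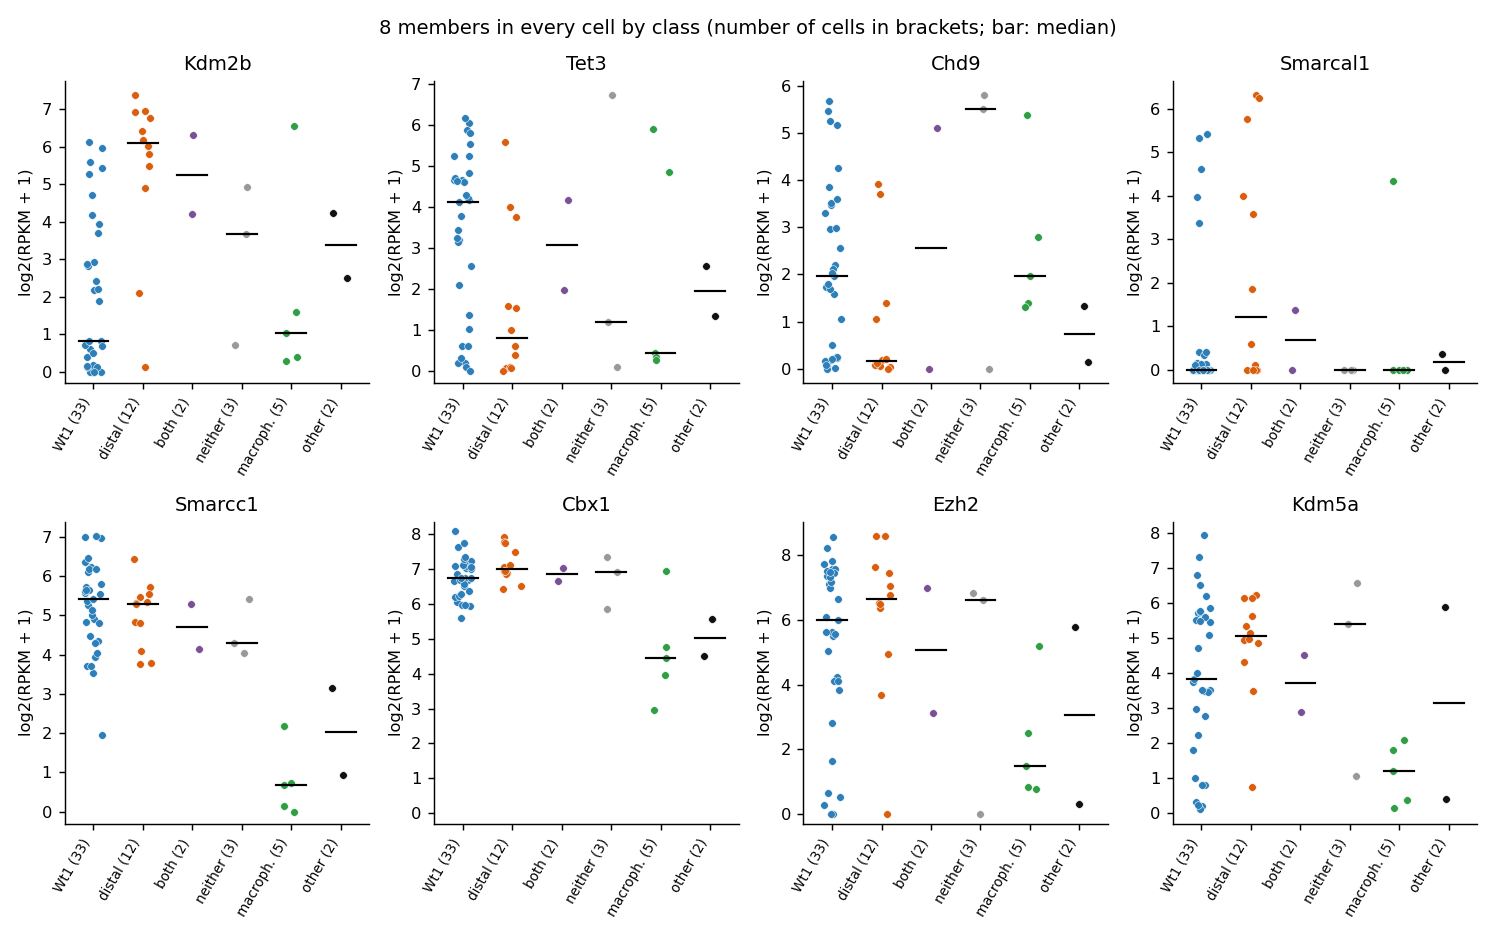
Each panel plots 1 member, log2(RPKM + 1), in every cell by class, with a bar at the median. Kdm2b is high in 10 of 12 distal-gene cells, Tet3 and Chd9 are detected in 26 and 22 of 33 Wt1 cells, and Smarcc1 is detected in every nephron cell and in 1 of 5 macrophage-like cells.

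The 5 macrophage-like cells had little Smarcc1, which every nephron cell had. Smarcc1 lies on chromosome 9 (110034528 to 110142682, build mm9). It was found in 50 of 50 nephron cells at 2.89 to 129 RPKM with a median of 38.2. In the macrophage-like cells it was at 0.59, 3.54, 0.67, 0.11 and 0.00 RPKM. The 2 cells that met neither rule were also low, at 0.90 and 7.79 RPKM, so the trait is not particular to macrophage-like cells. The mean was 42.7 ± 29.7 in nephron cells and 0.98 ± 1.46 in macrophage-like cells (log2 ratio -4.46). Only the highest macrophage-like cell reached the lowest nephron cells. Smarcc2, its paralog, was detected in 3 of the 5 and in 23 of 50. Of 375 rows detected in every nephron cell, 322 were detected in all 5 macrophage-like cells and 3 in 1 or none, Smarcc1 among them with Nr2f2 and Ncam1. In the 2 nephron cells with the fewest genes detected (2857 and 2809), Smarcc1 was at 12.2 and 16.2 RPKM. The part of depth in the low Smarcc1 of the macrophage-like cells was not tested.

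Ezh2 was at 4.65, 35.9, 0.79, 1.79 and 0.71 RPKM in the macrophage-like cells and had a median of 90.7 in nephron cells (log2 ratio -3.46, with overlap, since 7 nephron cells were below RPKM 1). Kdm5a, a demethylase of active promoters, was at 0.10, 2.48, 0.31, 1.28 and 3.22 RPKM against a nephron median of 26.7 (log2 ratio -3.94). Kdm3a and Tet1 were below RPKM 1 in all 5, with 24 of 50 nephron cells detected for each, and Ezh1 is listed at 0 in all 5. Cbx1 was at 122 RPKM in 1 macrophage-like cell and at 6.73 to 26.2 in the other 4, under the lowest nephron cell (47.6). Cbx3 was at 343 to 1204 RPKM in the 5 cells and at 451 to 2702 in nephron cells, so the ranges overlap.

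Some members were as frequent in these cells. Detected in all 5 were Cbx1, Cbx3, Smarca5, Suz12, Kdm6b and Chd9, and the share of all rows that were is not given here. Suz12 had a median of 34.0 RPKM against 8.34, and Tet2, which is known for its part in blood cells, was at 0.00, 22.8, 42.9, 3.47 and 23.8 RPKM against a nephron median of 1.97 (log2 ratio 0.83). Chd1 (2 of 5 cells) and Smarcad1 (3 of 5) had log2 ratios of 1.34 and 1.03, each on 2 high cells. Eed was detected in 3 of the 5 (log2 ratio 0.74).

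By mean RPKM, 29 of 58 members were 2-fold or more lower in macrophage-like cells, against 52.0% of rows, and 3 were higher, against 16.9%. The median log2 ratio was -1.01 for members and -1.10 for all rows. By this median and by the share of lower members, the members lay close to the table as a whole. The share of higher members (5.17%) was below that of rows. By the difference of mean log2(RPKM + 1) the share of lower members was not close, with 43.1% of members lower by 1 or more against 24.4% of rows. Without each gene's highest cell 27 lower members (rows 41.8%) and 1 higher member (rows 10.5%) kept that size. The macrophage-like cells had a median of 3489 genes detected against 4366 and a median G2/M score of 0.75 against 3.39. They held 18 to 31 members each, with a median of 21, while the 37 nephron cells within their range of genes detected held 22 to 38, with a median of 31. The part of depth and of the cell cycle in these differences was not tested.

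Covariation among the members was close to that of all genes. The mean pairwise rho was 0.02 over the 56 members measured and also 0.02 over 9956 rows, and 2.86% of 1540 member pairs were at 0.3 or more against 2.96% of row pairs. The 4 DNA methylation genes had the highest family mean (0.17, partial 0.15), the 4 Polycomb genes had 0.10 (partial 0.05), and the Tet genes were at -0.09. The highest pairs were Kdm1a with Ezh1 (0.50, partial 0.39), Hdac4 with Uhrf1 (0.45, partial 0.42) and Kdm5b with Kdm6b (0.45, partial 0.44). Next were Ezh2 with Cbx1 (0.45, partial 0.45) and Cbx3 with Hdac2 (0.43, partial 0.47). Over all rows, the genes with the highest rho to Ezh2 were Ipo7 (0.60), Vrk1 (0.59) and Coro1a (0.57, detected in 11 cells).

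Known partners of the members, 95 genes in 6 lists of which 85 had a row, gave a like picture. Of these, 41 were detected in 29 or more cells, against 28.0% of all rows. With the G2/M score 7 of 81 measured partners were at 0.3 or more (rows 10.1%) and none at -0.3 or less (rows 0.934%). With the S score 6 were at 0.3 or more (rows 9.02%) and 2 at -0.3 or less (rows 1.22%). In the Polycomb list, 5 of 17 genes were detected in 29 or more cells, led by Rbbp4 (55 cells, 73.7 RPKM) and Jarid2 (49 cells, 36.2). In the SWI/SNF list it was 9 of 14, led by Pbrm1 (54 cells, rho with the S score -0.41) and Arid1a (53 cells). Of the NuRD, Sin3 and CoREST list, 9 of 16 were, led by Sap18 and Ncor1. Of the DNA methylation list, 4 of 10 were, led by Mbd4 (45 cells) and Hells (42 cells), a remodeler needed for DNA methylation whose rho with the S score was 0.59, as high as that of Dnmt1. In the heterochromatin list 5 of 10 were, led by Atrx (57 cells) and Lbr (54 cells, 203 RPKM, rho with the G2/M score 0.45). In the list of acetylation and active-promoter methylation 9 of 18 were, led by Mll2 and Brd3 (53 cells, rho 0.51 with the S score).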

How the data were processed

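The expression profiles of 57 cells were taken from 1 table of 12087 genes whose values are RPKM, computed by the authors and not logged, per the file headers. Its deposited count of cells above RPKM 3, treated as a quantity of another kind, matched the values in all 12087 rows and was never below 2. A second deposited table of 787 genes in 28 cells gives RPKM and, as a score of the authors, a fold whose sign marks the proximal or distal class; its formula and the class of each cell are not given in the sources used here. TopHat 1.4.1, DESeq and mm9 stand, without a role, in the submitters' processing notes. Coordinates are those of the deposited table, and promoters are from RefSeq, build GRCm38.p6.

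Members, gene lists, classes and marks were chosen with earlier results of these data known. Nephron cells had Pax8 at RPKM 5 or more. Calls were a Spearman rho of 0.3 in size among genes detected in at least 5 nephron cells, or a log2((mean + 1)/(mean + 1)) of 1 in size. Intervals of shares of cells are exact (Clopper-Pearson, 95%) and cover only the drawing of cells from this pool. Reads per cell were estimated from the steps of low RPKM values and GENCODE exon lengths. Near-identical copies were stretches of at least 300 bases at 95% identity or more, found with blastn 2.17.0 in GENCODE transcripts. The lowess trend had a span of 0.3. Scripts ran in Python 3.11.15 with numpy 2.4.6, pandas 2.3.3, scipy 1.17.1, statsmodels 0.14.6 and matplotlib 3.10.9 and were tested on simulated data. Given in full are a list of members with known roles, the 3 members in most cells and the 1 in fewest of each family, the 10 highest and 5 lowest by rho with the G2/M score, the 5 largest differences each way between classes, the 5 furthest above the variation trend, and members in the authors' class table. A member that enters the counts is not reported here by itself.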

Additional observations from a re-analysis of the deposited data

How the results depend on the processing

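Members detected in 29 or more cells numbered 21 with detection set at RPKM 5, in place of 32 (rows 28.0%). Where no share of rows stands beside a count in this section, it is not given here. With a rho of 0.3 or more to the G2/M score there were 2 in place of 7 (rows 10.1%) when genes detected (rows 3.42%) or, chosen after seeing the data, estimated reads were held. With -0.3 or less there was 1 over all cells in place of 0. For the S score, -0.3 or less was reached by 0 with a pseudocount of 0.1 in the score and by 3 with genes detected held (rows 2.92%), in place of 1 (rows 1.22%). Between the cells with highest and lowest G2/M score, 2-fold higher members numbered 15 by mean log2(RPKM + 1) in place of 8. This puts their share (25.9%) above that of rows (18.5%) and not below it. Lower members, in place of 4 (rows 19.8%), numbered 7 with a pseudocount of 0.1 (rows 24.1%). They numbered 0 by mean log2(RPKM + 1) (rows 3.52%) and 2 without each gene's highest cell (rows 9.63%). Members 2-fold higher in Wt1 cells numbered 3 by mean log2(RPKM + 1) (rows 7.27%) and 6 without the highest cell (rows 19.1%), in place of 10 (rows 25.9%). The mean pairwise rho of members, 0.02, was 0.000899 with genes detected held and 0.036 over all cells. Directions turned for Kdm1b (to 1.01 without the highest cell) and Cbx6 (to 0.45 by mean log2(RPKM + 1) and 1.69 without the highest cell) by G2/M score, for Tet2 between nephron classes (to 0.23 and 1.37) and for Smarcad1 in macrophage-like cells (to -0.34 and -0.49). In these the highest cell was left out, or counted less; for the other changes the cause was not tested. No paired analysis was possible because the cells form 1 group. Depth limits members absent from a cell: RPKM 1 is a few reads in a short gene, and the pool was not repeated.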
